A study of Mus musculus with 6 samples.

Results

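The genes described here are 10 genes of the actin cytoskeleton and its companions, namely *Actb*, *Actg1*, *Tmsb4x*, *Tmsb10*, *Pfn1*, *Cfl1*, *Coro1a*, *Arpc2*, *Arpc3* and *Vim*. They were taken by symbol from the 27998 genes listed in the count tables, and all 10 were found and passed the filter on low counts. The study profiled invariant natural killer T (*i*NKT) cells, innate-like T cells with a semi-invariant receptor for lipid antigens, by droplet-based single-cell RNA-seq of 3 organs (liver, spleen, lymph node), with 2 libraries each. All 6 libraries came from wild-type C57BL/6 mice aged 5 weeks, with no treatment named. The labels give the molecule as nuclear RNA while the methods describe whole sorted cells, so it is not settled which of them the levels stand for. Cells were depleted of CD8+ and B220+ cells and then sorted on TCR-β and CD1d tetramer, so a common sort gate lies behind each group. The methods call the 2 libraries biological repeats, but the labels do not say how many mice stood behind each, so p-values measure only the spread between these libraries.

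Actin monomers assemble into filaments that shape the cell cortex, drive crawling and organize the contact between a T cell and its target. Thymosins hold monomers in reserve, profilin feeds them to growing ends, cofilin severs old filaments, and the Arp2/3 complex starts new branches. Vimentin forms a separate network of intermediate filaments that is prominent in many leukocytes.

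The tables held 16587 cell barcodes, of which 16532 were kept, with 2638 to 2861 cells per library. Total UMI (unique molecular identifier) counts ran from 4768016 to 11086603 per library, and the median per cell was higher in liver (3592 and 2880) than in spleen (1724 and 1554) or lymph node (1730.5 and 1470). The 5 T cell identity genes that were matched were all detected in each library, at a summed level of 5346 to 6459 CPM (the UMI count scaled to a library of 1000000 UMIs). Pairs of libraries shared few barcodes, for example 6 between the 2 liver libraries and 11 between the first libraries of liver and spleen. Both lymph node libraries held UMIs of Y-linked genes (1366 and 1584) and none of *Xist*, while the other 4 held *Xist* (5425 to 10553) and none of the Y-linked genes. The sex of the mice and the organ therefore cannot be told apart in any comparison with lymph node.

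The members ranked among the most abundant messages of these cells. In the first liver library, *Tmsb4x* held place 2, *Tmsb10* place 3, *Actb* place 4 and *Pfn1* place 15 by UMI count among 13682 detected genes, ribosomal protein and haemoglobin genes left aside. *Vim* stood far lower, at place 2042. Together the 10 genes took 6.71% ± 0.485 (SD, n = 2) of the UMIs used in liver. The share was 6.44% ± 0.00369 for spleen and 6.66% ± 0.0122 for lymph node. Over all UMIs, ribosomal protein and haemoglobin genes included, it was 4.48% ± 0.434 for liver (4.17% and 4.79%), 4.62% ± 0.0282 for spleen and 4.97% ± 0.192 for lymph node (4.84% and 5.11%). The order of the organs thus depended on the denominator, and on the second one both liver libraries lay below both lymph node libraries. UMI counts of a 3′ kit count molecules and need no correction for transcript length.

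Both actin genes encode cytoplasmic actins, *Actb* on chr5:142903115-142906754 and *Actg1* on chr11:120345690-120348542 (GRCm38, both on the minus strand). Their coding sequences, each 1128 bases, were 88.7% identical, with 128 mismatches. The first 90 bases are shown because they let a reader see how close the paralogs are, and capitals mark the bases that differ.
Actb: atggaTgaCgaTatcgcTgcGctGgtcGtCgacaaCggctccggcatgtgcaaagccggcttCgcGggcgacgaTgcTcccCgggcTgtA
Actg1: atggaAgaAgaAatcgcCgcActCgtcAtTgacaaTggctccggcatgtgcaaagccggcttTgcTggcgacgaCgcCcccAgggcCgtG
In the coding sequences the longest run shared by both was 62 bases, but in the last 400 bases of the transcripts, where a 3′ kit reads, it was 11 bases.

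*Actb* was lowest in liver and highest in lymph node. It stood at 9998 and 12849 CPM for the liver libraries, 14125 and 15183 for spleen and 20471 and 23234 for lymph node. The organs did not overlap. *Actb* in lymph node exceeded that in liver 1.91-fold (log2 fold change of liver over lymph node −0.94, SE 0.14, adjusted p = 3.28e-06 by edgeR's quasi-likelihood test). It was also 1.49-fold higher in lymph node than in spleen (−0.58, SE 0.14, adjusted p = 0.00348), a call lost without the first spleen library (−0.52, adjusted p = 0.0682) or the second lymph node library (−0.49, adjusted p = 0.0839). The difference between liver and spleen (−0.36, SE 0.14) missed the threshold at adjusted p = 0.0600, although it passed with DESeq2 (adjusted p = 0.0413) and without the second liver library (−0.54, adjusted p = 0.0134). Per cell, without scaling, *Actb* gave 26.7 and 27.7 UMIs for liver, 19.9 and 19.8 for spleen and 28.5 and 29.6 for lymph node, so the deeper liver cells and the lymph node cells were close on that scale.

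*Actg1* ran the other way. It stood at 2738 and 2920 CPM for liver, 1745 and 1566 for spleen and 1693 and 1363 for lymph node. The liver libraries lay above all 4 others, while spleen and lymph node overlapped. *Actg1* was 1.71-fold higher in liver than in spleen (0.77, SE 0.13, adjusted p = 4.16e-05, edgeR) and 1.85-fold higher than in lymph node (0.89, SE 0.13, adjusted p = 1.39e-06). Both calls held with each library left out in turn. *Actg1* UMIs per *Actb* UMI were 0.274 and 0.227 for liver, 0.124 and 0.103 for spleen and 0.0827 and 0.0587 for lymph node, so the mix of actin messages ranked the organs without overlap.

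The thymosins are small proteins that bind actin monomers. *Tmsb4x* lies on chrX:167207093-167209315 and *Tmsb10* on chr6:72957347-72958748, both on the minus strand. Their whole coding sequences of 135 bases are shown since the 2 genes moved differently between organs, and capitals again mark the 40 differing bases.
Tmsb4x: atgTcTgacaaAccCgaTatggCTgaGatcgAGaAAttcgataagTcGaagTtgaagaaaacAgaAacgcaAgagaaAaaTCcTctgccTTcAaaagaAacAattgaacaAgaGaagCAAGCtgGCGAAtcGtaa
Tmsb10: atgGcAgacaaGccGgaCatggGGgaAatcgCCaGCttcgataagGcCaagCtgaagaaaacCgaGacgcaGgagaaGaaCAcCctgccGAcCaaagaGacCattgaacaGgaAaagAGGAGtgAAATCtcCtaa
The longest run they shared was 10 bases, and 8 bases within the last 400 bases of the transcripts.

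*Tmsb4x* was the most abundant member in liver, at 24250 and 27216 CPM, against 19872 and 20431 for spleen and 19668 and 18016 for lymph node. The liver libraries again lay above all others. *Tmsb4x* was 1.37-fold higher in liver than in lymph node (0.45, SE 0.14, adjusted p = 0.00954, edgeR), but the call was lost without the second liver library (0.37, adjusted p = 0.0550) or the second lymph node library (0.39, adjusted p = 0.119). Against spleen the value was 0.35 (SE 0.14), short of the threshold at adjusted p = 0.0550 in edgeR, and DESeq2 called it (adjusted p = 0.0189). It also passed in edgeR with the members left out of scaling (0.36, adjusted p = 0.0488) and with no low-count filter (0.39, adjusted p = 0.0181). Without the first liver library the value was 0.45. *Tmsb10* stood at 13622 and 15468 CPM for liver, 16310 and 16513 for spleen and 13715 and 12096 for lymph node. None of its 3 comparisons passed in edgeR. The highest difference, spleen over lymph node, was 0.35 (adjusted p = 0.0744) and passed in DESeq2 (adjusted p = 0.0273). *Tmsb10* UMIs per *Tmsb4x* UMI were 0.565 ± 0.00470 for liver (SD, n = 2), 0.814 ± 0.00887 for spleen and 0.684 ± 0.0183 for lymph node, and the organs did not overlap.

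*Pfn1*, the profilin that delivers monomers to growing filaments, was lowest in liver in CPM. It stood at 4320 and 5289 CPM for liver, 7249 and 7876 for spleen and 6346 and 7257 for lymph node. The liver libraries lay below the rest, and spleen and lymph node overlapped. Per cell, without scaling, *Pfn1* gave 11.5 and 11.4 UMIs for liver, 10.2 and 10.3 for spleen and 8.84 and 9.24 for lymph node. The deeper liver cells were thus highest on that scale. *Pfn1* was 1.57-fold higher in spleen than in liver (−0.65, SE 0.14, adjusted p = 0.000542, edgeR), with each library left out in turn as well. Lymph node exceeded liver 1.42-fold (−0.50, SE 0.14, adjusted p = 0.00360), but not without the first liver library (−0.36, adjusted p = 0.0740) or the second lymph node library (−0.40, adjusted p = 0.0912). *Cfl1*, the cofilin that severs filaments, showed no organ difference past the threshold, with 1897 and 2227 CPM for liver, 2170 and 2143 for spleen and 2178 and 2003 for lymph node. The log2 fold changes of *Cfl1* were −0.06 (adjusted p = 0.743), −0.02 (adjusted p = 0.914) and 0.04 (adjusted p = 0.857) by edgeR for liver over spleen, liver over lymph node and spleen over lymph node. *Cfl1* shares its locus with *Snx32* on the other strand, which had 199 UMIs in all.

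*Coro1a* encodes coronin 1A, a filament-binding protein of leukocytes that acts with the Arp2/3 complex and is needed for T cell survival. It stood at 2076 and 2046 CPM for liver, 1571 and 1352 for spleen and 1396 and 1108 for lymph node. The liver libraries lay above the other 4. *Coro1a* was 1.65-fold higher in liver than in lymph node (0.72, SE 0.13, adjusted p = 3.82e-05, edgeR), a call that held with each library left out. It was 1.41-fold higher than in spleen (0.50, SE 0.13, adjusted p = 0.00474), and this was lost without the second spleen library (0.40, adjusted p = 0.111). *Coro1a* overlaps *Bola2* on the other strand, which had 9223 UMIs.

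No comparison of the Arp2/3 subunits passed the threshold. *Arpc2* lay between 1112 and 1216 CPM and *Arpc3* between 619 and 744 CPM over the 6 libraries. The organs did not overlap for *Arpc2*, with spleen highest and liver lowest, and overlapped for *Arpc3*. The log2 fold changes of *Arpc2* were −0.12 (adjusted p = 0.494), −0.05 (adjusted p = 0.763) and 0.07 (adjusted p = 0.764) in edgeR. Those of *Arpc3* were 0.06 (adjusted p = 0.751), 0.09 (adjusted p = 0.579) and 0.03 (adjusted p = 0.901), for liver over spleen, liver over lymph node and spleen over lymph node.

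*Vim*, the intermediate filament gene, was the one member with a low level, and in CPM it was highest in lymph node. It stood at 83.5 and 79.0 CPM for liver, 88.5 and 64.5 for spleen and 169 and 142 for lymph node. The lymph node libraries lay above the rest, and liver and spleen overlapped. Per cell, without scaling, *Vim* gave 0.223 and 0.170 UMIs for liver, 0.125 and 0.0844 for spleen and 0.235 and 0.180 for lymph node. On that scale the deeper liver cells and the lymph node cells overlapped. *Vim* in lymph node exceeded that in liver 1.91-fold (−0.93, SE 0.13, adjusted p = 1.21e-06, edgeR) and that in spleen 2.02-fold (−1.02, SE 0.14, adjusted p = 1.35e-06). Both calls held with each library left out in turn. In summed cells, more cells of a *Vim*-rich type and more *Vim* per cell cannot be told apart, nor can they for the other members.

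**Figure D1:**
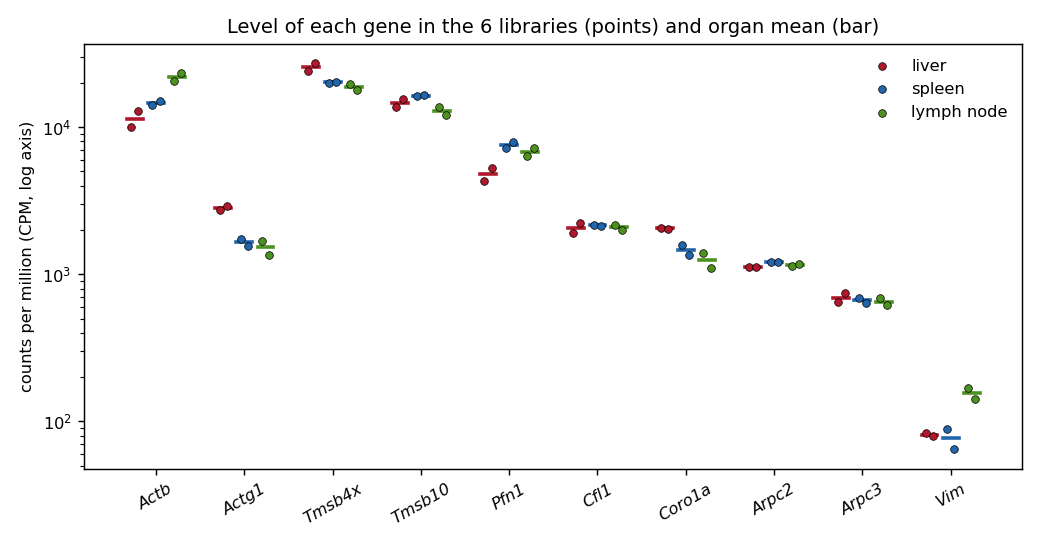
Level of each of the 10 genes in the 6 libraries, in CPM on a log axis, scaled by TMM factors. Points are libraries, 2 per organ, and bars are organ means. *Actb* and *Vim* were highest in lymph node, and *Actg1*, *Tmsb4x* and *Coro1a* highest in liver.

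In the fit over all cells, 3 of the 10 members passed an adjusted p of 0.05 for liver over spleen, where 25.9% of all 10251 genes tested did. For liver over lymph node it was 6 members and 37.5% of genes, and for spleen over lymph node 2 members and 18.2%. DESeq2 called 5, 6 and 3 members and 14%, 25.1% and 11.1% of genes. The members' counts thus stood near the background for liver over spleen and for spleen over lymph node in edgeR, and above it for liver over lymph node. That background was not matched for abundance, while all members but *Vim* were among the most abundant genes. The median log2 fold change of the members was −0.00, 0.04 and 0.08, against 0.02, 0.01 and 0.00 over all genes. In liver against lymph node, 3 members were higher (*Actg1*, *Tmsb4x*, *Coro1a*) and 3 lower (*Actb*, *Pfn1*, *Vim*). The 3 comparisons share libraries, so their calls are not independent of each other. Summed immediate early and stress genes moved with the lymph node as well, at 1375 and 1513 CPM for liver, 2222 and 1896 for spleen and 8373 and 9194 for lymph node. All 11 of these genes were detected in liver and lymph node, with *Atf3* at 0 in both spleen libraries and *Hspa1b* at 0 in the second. The part of these genes in the differences of *Actb* and *Vim* was not tested. Among markers of other cells, hepatocyte genes summed to 1.65 to 4.02 CPM and platelet genes to at most 1.14 CPM, while myeloid genes summed to 197 and 238 CPM for liver, 224 and 219 for spleen and 280 and 359 for lymph node. The myeloid sum was thus highest in lymph node, as *Vim* was, and above the level of *Vim* in each library. *Csf1r* and *Cd14* were at 0 in the first lymph node library. Endothelial and stellate genes summed to 25.3 and 29.9 CPM for liver, 42.8 and 41.6 for spleen and 63.0 and 66.1 for lymph node. That sum was also highest in lymph node, with *Dcn* and *Bmp2* at 0 in each library. The part of the myeloid or the endothelial and stellate genes in the differences was not tested.

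**Figure D2:**
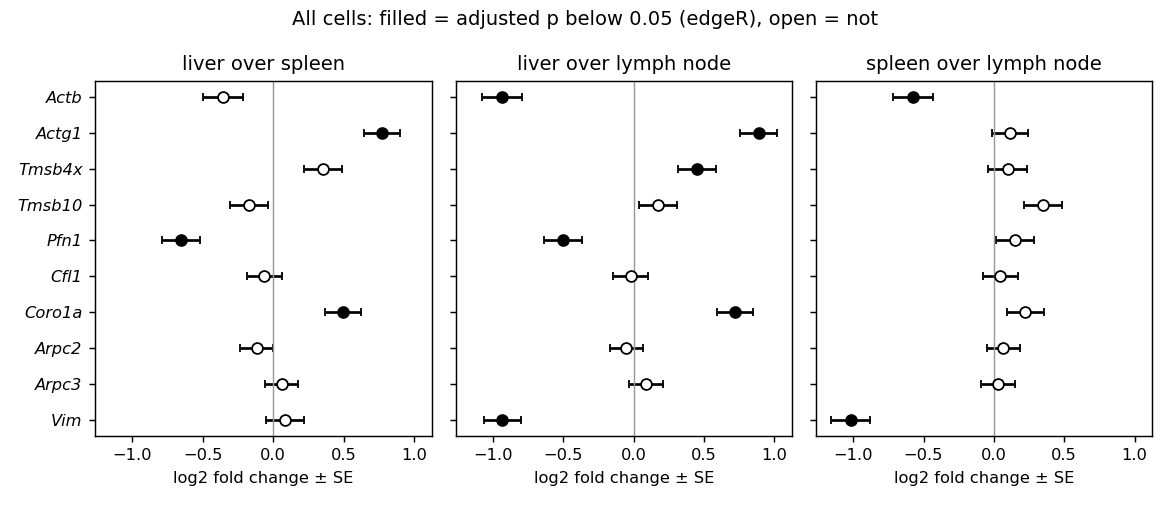
Log2 fold changes ± SE of the 10 genes in the 3 organ comparisons over all cells (n = 2 libraries per organ). Filled points had an adjusted p below 0.05 by edgeR. Between liver and lymph node 6 points are filled, and between spleen and lymph node only *Actb* and *Vim* are.

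The wider cytoskeleton was read from 10 lists with 125 genes in the tables, 118 of them tested. Between liver and spleen 39 were higher and 11 lower in liver, and between liver and lymph node 50 were higher and 18 lower. The background was 12.8% higher and 13.1% lower in the first comparison, and 18% and 19.6% in the second. Between spleen and lymph node 12 were higher and 12 lower, with 7.89% and 10.3% of all genes. Of the nucleation promoters and formins, 7 of 14 were higher and 2 lower in liver than in spleen, and 7 higher and 3 lower than in lymph node. The list of tubulins, the subunits of microtubules, also held *Stmn1*, which is not a tubulin. Of the genes tested from this list, 4 of 8 were higher in liver than in spleen and 3 than in lymph node, with none lower.

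Other lists were mixed. Of the genes for monomer binding, severing and capping, 3 of 21 were higher and 4 lower in liver than in spleen, and 6 higher and 5 lower than in lymph node. Of the 7 Arp2/3 subunits beside the members, 1 was higher and 1 lower in liver in both comparisons. These were *Arpc1a* (0.51 over spleen and 0.47 over lymph node) and *Arpc5l* (−0.41 and −0.31), named after their values were seen. *Mkl1*, a coactivator that actin monomers hold in check and that drives actin genes with SRF, was higher in liver at 0.92 and 0.87. *Mkl2* was lower in liver than in lymph node at −1.08, and both were also named after their values were seen. *Srf*, the remaining gene of their list, was called in neither comparison.

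Single genes of these lists moved further than any member. Between liver and spleen, the largest called values reported here were for *Coro2a* (1.84) and *Tuba1c* (1.01) on the liver side and for *Actn1* (−1.49), *Capg* (−1.15) and *Diaph2* (−0.92) on the spleen side. Between liver and lymph node they were for *Rhoc* (1.69), *Myo9b* (1.12) and *Cyfip2* (1.11) in liver and for *Capg* (−3.72), *Lmna* (−1.90) and *Pfn2* (−1.60) in lymph node. Between spleen and lymph node they were for *Rhoc* (1.05), *Myo9b* (0.66) and *Cfl2* (0.54) in spleen and for *Capg* (−2.57), *Marcksl1* (−1.46) and *Pfn2* (−1.44) in lymph node. *Capg*, which caps filament ends, thus led the lymph node side against both other organs.

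The spread of each member over single cells was read after thinning every cell to 1000 UMIs, which left 2360 to 2852 cells per library. *Actb* stood apart from the rest. The variance of its UMIs over their mean was 8.19 and 10.2 for liver, 13.8 and 14.8 for spleen and 16.2 and 22.5 for lymph node, where a Poisson draw gives a value near 1. For the other 9 genes this ratio lay between 0.970 and 1.92. The median cell held 5 and 6 *Actb* UMIs for liver, 5 and 5 for spleen and 7 and 8 for lymph node, but the 99th percentile was 36 and 45 for liver, 52.2 and 55 for spleen and 65 and 88.4 for lymph node. In absolute UMIs the organs thus lay closer together in their median cell than in their uppermost cells. As a ratio this held for liver against both other organs, but not for spleen against lymph node.

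Cells with more than 29 *Actb* UMIs per 1000, the 90th percentile over all cells, made up 2.50% and 5.68% of liver cells, 7.31% and 8.45% of spleen cells, and 14.6% and 20.7% of lymph node cells. Such cells were chosen on *Actb* itself, so its excess in them is no finding. For the other members, the median over libraries of the ratio between these cells and the rest was 1.67 for *Vim* (range 1.05 to 2.22), 1.23 for *Actg1*, 1.19 for *Cfl1*, 1.13 for *Pfn1*, 1.13 for *Coro1a*, 1.03 for *Tmsb4x* and 0.98 for *Tmsb10*. Beside *Actb*, the highest median log2 ratios, with 50 CPM added to both sides, were those of *Abhd2* (1.68), *Rpgrip1* (1.55), *Slc39a1* (1.38) and *Supt16* (1.35). None of these is on the cytoskeleton lists, but the tubulin *Tubb5* (1.16, range 0.77 to 1.39 over libraries) followed a few places on. Across cells, the correlations between members were weak, and none of the 45 pairs had a median over libraries above 0.2.

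**Figure D3:**
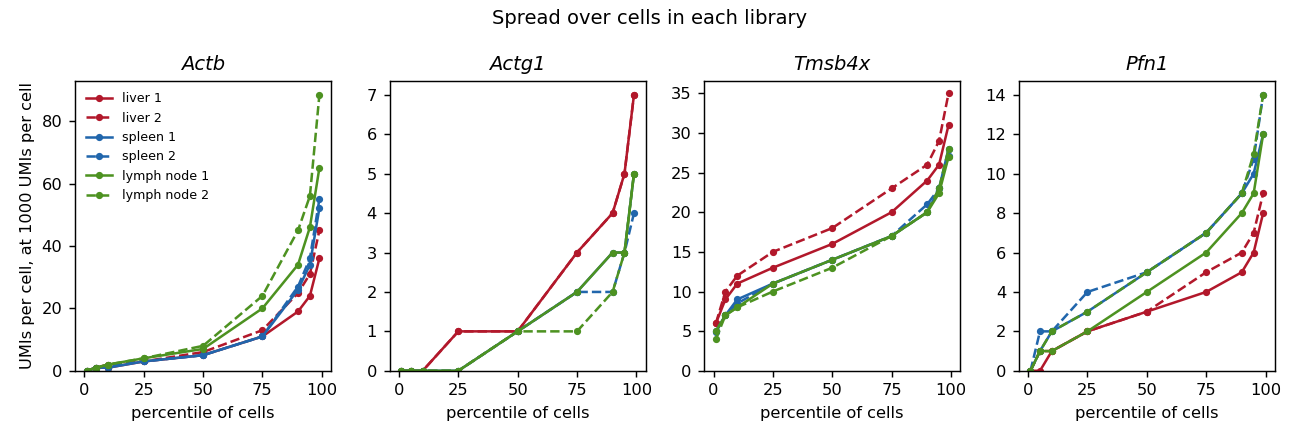
Percentiles of UMIs per cell for 4 members in each library, after thinning each cell to 1000 UMIs. Lines are libraries, solid for the first and dashed for the second of an organ. *Actb* rises steeply above the 75th percentile, up to 88.4 at the 99th percentile in the second lymph node library, and the other 3 do not.

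The cells were clustered without the members and the listed cytoskeleton genes, and the clusters were named from fixed markers. Clusters 0 (4390 cells, mostly from liver) and 1 (3782 cells, mostly from spleen) stayed unnamed, and cluster 3 (1982 cells, mostly from lymph node) was *i*NKT17-like, the interleukin-17 lineage. Cluster 0 was led by genes such as *Gzmb*, *Klre1*, *Gzma* and *Fcer1g* and held more markers of another list than of the *i*NKT1 list among its top 10 genes, while cluster 1, led by *Art2b*, *Ccl5* and *Slamf7*, rested on too few markers of that list. A cluster against the rest of its library is a description here, with no test, and CPM within clusters carries no TMM factor.

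*Vim* varied most among clusters. It lay above the rest of the library in all 6 libraries in cycling cells (cluster 6, median log2 ratio 1.94) and in *i*NKT17-like cells (cluster 3, 1.51), and in 5 of 6 in cells like recent thymic emigrants (cluster 4, 1.19). In cluster 1 it lay below in all 6 (−1.80). In cycling cells *Vim* reached 314 and 320 CPM for liver, 435 and 173 for spleen and 434 and 259 for lymph node. *Actg1* was also highest in cycling cells, above the rest in all 6 libraries (0.80), as was *Cfl1* (0.33).

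*Actb* was highest in cluster 5, a group of 931 cells that stayed unnamed, since its leading genes, among them *Khsrp*, *Rbm45* and *Abhd2*, matched no marker list. There it stood at 26420 and 33075 CPM for liver, 32770 and 36172 for spleen and 42813 and 48942 for lymph node, above the rest of each library (median log2 ratio 1.30). The organs ranked in the same order in this cluster as over all cells, although the highest liver library lay above the lowest spleen library. *Actb* lay below the rest in 5 of 6 libraries in cluster 0 (−0.65). The remaining members moved less. *Pfn1* and *Tmsb10* were low in *i*NKT17-like cells (−0.38 and −0.34), and *Arpc2* kept within −0.15 to 0.27 in each of the 10 clusters with at least 2 libraries.

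**Figure D4:**
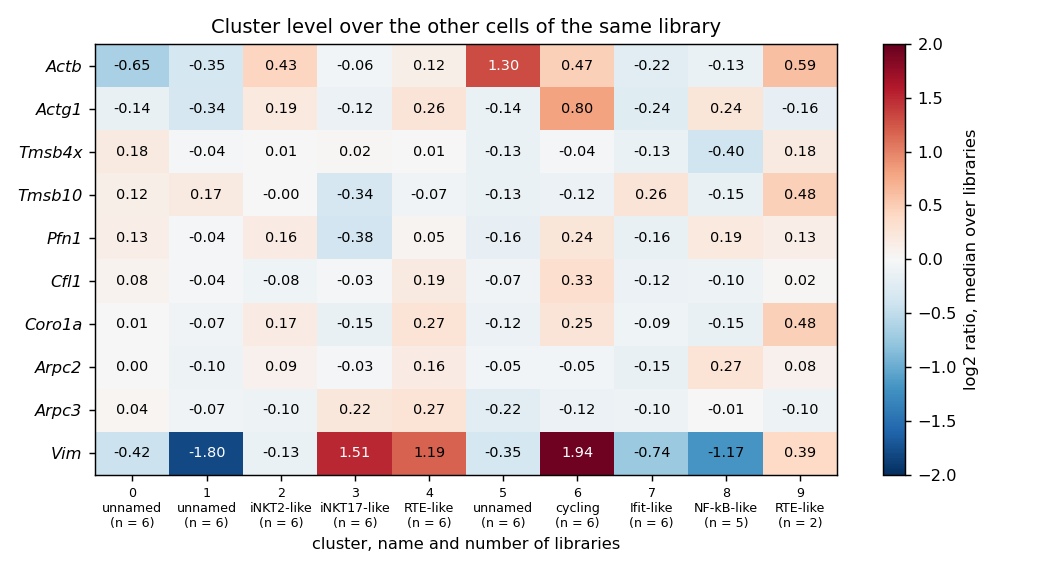
Level of each member in a cluster over the other cells of the same library, as the median log2 ratio over the libraries with enough cells (number below each cluster). *Vim* spans −1.80 to 1.94, and *Actb* reaches 1.30 in cluster 5.

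Organ differences were then tested within clusters 0, 1 and 3, to hold the kind of cell closer to constant. The organs fill these clusters unevenly, with 45 and 90 lymph node cells in cluster 0, 31 and 108 liver cells in cluster 1, and 20 and 34 liver cells in cluster 3. Calls that rest on those libraries therefore have few cells behind them. *Actg1* was higher in liver in each of them. In cluster 1, *Actg1* stood at 4511 and 3288 CPM for liver, 1456 and 1284 for spleen and 1266 and 1123 for lymph node, with log2 fold changes of 1.47 over spleen (adjusted p = 2.71e-11, edgeR) and 1.66 over lymph node (adjusted p = 2.43e-09). In cluster 0 the *Actg1* values were 0.64 (adjusted p = 0.00406) and 0.93 (adjusted p = 0.000158), and in cluster 3 they were 0.78 (adjusted p = 0.00940) and 1.21 (adjusted p = 8.72e-07). *Actg1* was thus called in liver against both organs in all 3 clusters. Without the second spleen library the cluster 0 call over spleen was lost (0.52, adjusted p = 0.141), without the second lymph node library that over lymph node (0.66, adjusted p = 0.0783), and without the first liver library the cluster 3 call over spleen (0.61, adjusted p = 0.168). In cluster 0 the call over spleen was also lost with DESeq2 (0.64, adjusted p = 0.0573) and that over lymph node at a Leiden resolution of 1.0 (0.64, adjusted p = 0.0507). With no regression before clustering both cluster 3 calls were lost (0.20, adjusted p = 0.806, over spleen and 0.54, adjusted p = 0.233, over lymph node).

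*Coro1a* was called higher in liver than in lymph node in cluster 0 (0.64, adjusted p = 0.0160, edgeR), cluster 1 (1.07, adjusted p = 0.000104) and cluster 3 (0.88, adjusted p = 0.000153). The *Coro1a* call in cluster 0 was lost without the second lymph node library (0.31, adjusted p = 0.578), with DESeq2 (0.59, adjusted p = 0.217) and at a Leiden resolution of 1.0 (0.46, adjusted p = 0.177). With no regression before clustering those in cluster 1 (0.52, adjusted p = 0.668) and cluster 3 (0.68, adjusted p = 0.118) were lost. Over spleen *Coro1a* was called in cluster 0 (0.60, adjusted p = 0.0107) and cluster 1 (0.74, adjusted p = 0.000280), and both were lost without the second spleen library (0.43, adjusted p = 0.264, and 0.67, adjusted p = 0.0858). The cluster 0 call over spleen was also lost with DESeq2 (0.61, adjusted p = 0.197), at a Leiden resolution of 1.0 (0.68, adjusted p = 0.143) and with cytoskeleton genes allowed in clustering (0.69, adjusted p = 0.0689). That in cluster 1 was lost with libraries thinned to equal totals (0.52, adjusted p = 0.210) and with no regression before clustering (0.46, adjusted p = 0.425). In cluster 3 the value over spleen was 0.31 (adjusted p = 0.456). *Pfn1* was called lower in liver than in spleen in clusters 0 (−0.73, adjusted p = 0.000221) and 3 (−0.80, adjusted p = 0.00532), the latter not without the first liver library (−0.68, adjusted p = 0.0575), and its value in cluster 1 was −0.42 (adjusted p = 0.0603). The *Pfn1* call in cluster 0 was lost at a Leiden resolution of 1.0 (−0.43, adjusted p = 0.220) and with cytoskeleton genes allowed in clustering (−0.35, adjusted p = 0.252).

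In total, cluster 0 had 5 members called for liver over spleen, 5 for liver over lymph node and none for spleen over lymph node in edgeR, where 9.2%, 8.99% and 1.61% of its genes were called. Cluster 1 had 3, 3 and 0, against 11.5%, 4.8% and 0.91%. Cluster 3 had 2, 6 and 2, against 2.85%, 14.6% and 4.43%. For spleen over lymph node, 0 members in cluster 0 and 1 in cluster 1 had an unadjusted p below 0.05, and DESeq2 also called 0 in both. The cluster 0 calls included *Actb* as lower in liver than in spleen (−0.45, adjusted p = 0.0263, edgeR), a call lost with DESeq2 (−0.46, adjusted p = 0.0721), with no low-count filter (−0.41, adjusted p = 0.110), with ribosomal genes kept (−0.46, adjusted p = 0.0641), without the first liver library (−0.30, adjusted p = 0.358) or the second spleen library (−0.32, adjusted p = 0.471), and turned to 0.13 (adjusted p = 0.816) at a Leiden resolution of 1.0 and 0.046 (adjusted p = 0.934) with cytoskeleton genes allowed in clustering. Without the second lymph node library no member stayed called between liver and lymph node in cluster 0.

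The *Actb* difference of liver from lymph node was larger in cluster 3 than in clusters 0 and 1, while liver over spleen was −0.25 (adjusted p = 0.509, edgeR) in cluster 3, −0.45 in cluster 0 and −0.020 (adjusted p = 0.962) in cluster 1. In cluster 3 it stood at 10253 and 10707 CPM for liver, 11039 and 14971 for spleen and 19444 and 23538 for lymph node. In cluster 0 the values were 8963 and 10757, 12205 and 14850, and 12837 and 12504 CPM, and in cluster 1 they were 11812 and 13622, 12009 and 13427, and 13313 and 17190 CPM. The lymph node thus stood clear of the spleen in cluster 3 and overlapped it in clusters 0 and 1. In cluster 3 the *Actb* log2 fold change of spleen over lymph node was −0.80 (adjusted p = 0.00181, edgeR). With no regression before clustering it shrank to −0.38, and the call was lost. The difference itself was tested as an interaction, on these clusters only and not on those from other clustering settings. For liver over lymph node, the log2 fold change of *Actb* in cluster 3 was lower than in cluster 0 by a difference of −0.69 (SE 0.11, adjusted p = 2.92e-06, edgeR) and than in cluster 1 by a difference of −0.74 (SE 0.11, adjusted p = 2.43e-09), both past the threshold in edgeR and DESeq2 and with each library left out. *Actb* and *Vim* were the members called against cluster 0, where 1.77% of genes were called for this comparison, 0.623% for liver over spleen and 0.658% for spleen over lymph node. Against cluster 1 the background was 2.1%, 1.58% and 0.728%.

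*Vim* within clusters rested on few UMIs. In cluster 3 it stood at 712 and 212 CPM for liver, 252 and 286 for spleen and 232 and 194 for lymph node. The first liver library, with 53 *Vim* UMIs from 20 cells, stood far above the other. The call of *Vim* as higher in liver than in lymph node in that cluster (1.08, adjusted p = 0.00783, edgeR) turned to −0.017 (adjusted p = 0.990) without it. It was also lost with DESeq2 (1.09, adjusted p = 0.136) and with no regression before clustering (1.15, adjusted p = 0.121). The excess of *Vim* in lymph node over all cells was therefore not found within *i*NKT17-like cells. In cluster 0 *Vim* was lower in liver than in spleen (−1.92, adjusted p = 1.35e-06), at 49.0 and 41.5 against 212 and 112 CPM, but not past the threshold without the first spleen library (−1.29, adjusted p = 0.152). It was also lower in liver than in lymph node in cluster 0 (−1.35, adjusted p = 0.0383), at 120 and 109 CPM for lymph node on 7 and 11 UMIs. That call held with DESeq2 (−1.37, adjusted p = 0.0370) and was lost with no low-count filter (−1.17, adjusted p = 0.141). It was lost as well without the second liver library (−1.21, adjusted p = 0.0693), the first spleen library (−1.32, adjusted p = 0.0522), the first lymph node library (−1.25, adjusted p = 0.146) or the second lymph node library (−1.35, adjusted p = 0.350). In cluster 1 *Vim* was higher in liver than in spleen (2.65, adjusted p = 0.000129) on 7 and 15 UMIs in liver and 19 and 25 in spleen, a call lost without the second liver library (2.68, adjusted p = 0.153), the first spleen library (2.42, adjusted p = 0.232) or the second spleen library (2.90, adjusted p = 0.217).

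**Figure D5:**
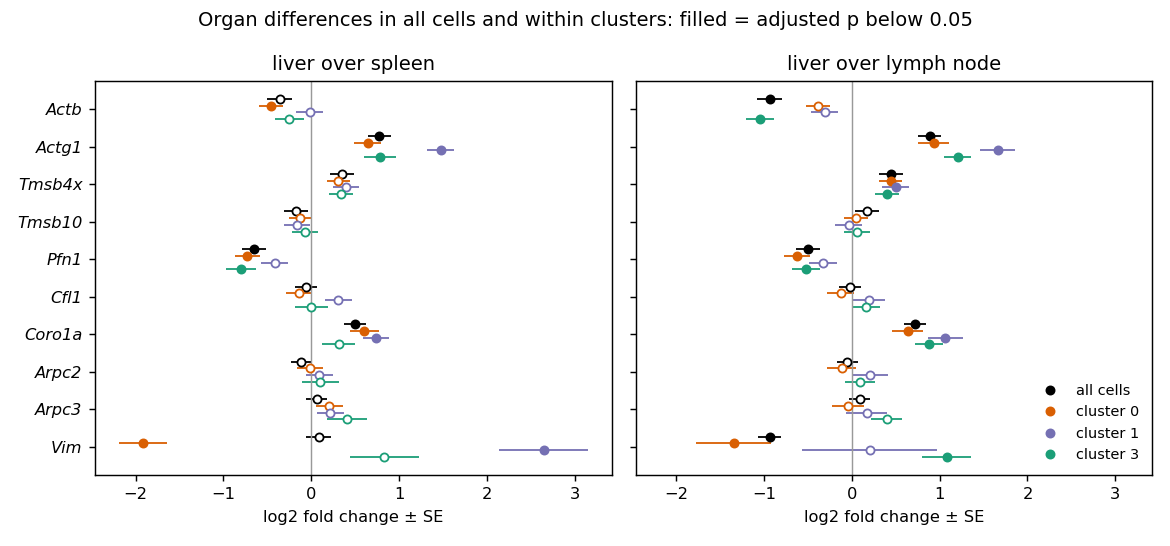
Log2 fold changes ± SE of the 10 genes for liver over spleen and liver over lymph node, in all cells and within clusters 0, 1 and 3. Filled points had an adjusted p below 0.05 by edgeR. *Actg1* lies right of 0 in each set, and *Vim* points lie on both sides.

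Genes with a pattern like each member were sought over 37 sums of 1 cluster in 1 library, by Pearson correlation of log2(CPM + 1), among 5970 genes. The sums share libraries and differ in depth, so the values are descriptions. The gene most like *Actg1* was *Gapdh* (0.93), and *Coro1a* was most like *Cotl1* (0.88), another filament-binding gene, with *Actg1* second (0.85). *Pfn1* was most like *H3f3b* (0.89), *Actb* like *Abhd2* (0.87), *Vim* like *Reep5* (0.83), *Tmsb10* like *Ms4a4b* (0.81), *Tmsb4x* like *Cnn2* (0.78) and *Cfl1* like *Ppia* (0.78). The Arp2/3 subunits had no close match, with *Arpc1b* (0.58) for *Arpc2* and *Rcsd1* (0.65) for *Arpc3*. The closest member to *Actb* was *Vim* at 0.31, in place 430 of the list, so the 2 actins did not share a pattern.

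Since SRF and *Mkl1* act through the CArG box, its letters were searched on both strands in the 250 bases before each RefSeq start (GRCm38.p6). The box was present in 482 of 32851 windows (1.47%). *Actb* had no window there. Among the 12 windows of the other 9 members, the box was found in that of *Actg1* alone, 90 bases before the start. The 30 bases around it, chr11:120348566-120348595 on the minus strand, are shown with the box in capitals.
Actg1 CArG box: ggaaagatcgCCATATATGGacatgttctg
The match is a description of the sequence and no measurement of binding, and its part in the organ differences was not tested.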

How the data were processed

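Droplet-based 3′ libraries (Chromium, v2 chemistry) were made from sorted *i*NKT cells. Per the labels, the authors deposited UMI counts per gene and cell from Cell Ranger 3.1.0 on mm10, and the annotation version is not given in the sources used here. Cells with 300 to 4000 genes and at most 15% mitochondrial UMIs were kept (55 of 16587 barcodes left out). Scrublet scores were used only to leave out the highest 2% of each library in an alternative. Ribosomal protein, ribosomal RNA and haemoglobin genes (110 genes, 23.4% to 34.4% of UMIs) were set aside.

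UMIs were summed per library, and organs compared with edgeR 4.0.16 (R 4.3.3) on all 6 libraries in 1 fit (low-count filter, TMM, quasi-likelihood test, Benjamini-Hochberg adjustment over all genes tested, called below 0.05). DESeq2 1.42.0 was an alternative. Cells were clustered with scanpy 1.11.5 (3000 variable genes without cytoskeleton genes, 20 components, Leiden resolution 0.5). An *i*NKT1-like class had been planned. Because cluster 0 held more markers of another class among its top 10 genes and cluster 1 had under 3 markers at least doubled, both stayed unnamed and were fitted separately, a choice made after seeing the data. Clusters were fitted on library sums of at least 10 cells, and differences between clusters by an interaction with the library as a block. The scripts were tested on simulated data.

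The members, lists and rules were chosen with earlier results of these data known. All 10 members were named, and of the pathway lists the 3 called genes with the largest change in each direction per comparison, and for likeness the gene with the highest correlation over sums of at least 50 cells. A few results of the pathway lists are not reported here. Coordinates and coding sequences were read from GENCODE vM21 (GRCm38), promoters from RefSeq. UMI totals set the precision, and p-values cover only the spread between libraries.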

Additional observations from a re-analysis of the deposited data

Results flagged for a closer look

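The organ difference of 3 members differed between cluster 3 (*i*NKT17-like) and cluster 0 or cluster 1 by an edgeR interaction test, given here as the log2 fold change in cluster 3 minus that in the other cluster. For *Actb*, liver over lymph node differed by −0.69 from cluster 0 and by −0.74 from cluster 1, and both passed with DESeq2 and without each library. *Actb* in spleen over lymph node differed by −0.85 from cluster 0, also with DESeq2, and by −0.48 from cluster 1, where DESeq2 gave −0.46 (adjusted p = 0.999) and the call was lost without the first lymph node library (−0.45, adjusted p = 0.161) or the first spleen library (−0.34, adjusted p = 0.490).

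*Vim* differed by 2.43 from cluster 0 in liver over lymph node, not past the threshold without the first liver library (1.46, adjusted p = 0.424) or the second lymph node library (2.32, adjusted p = 0.134). In liver over spleen it differed by 2.69 from cluster 0, not without the first liver library (1.75, adjusted p = 0.209) or the first spleen library (2.00, adjusted p = 0.150), and by −2.12 from cluster 1, not without the second liver library (−1.27, adjusted p = 0.726), the first spleen library (−1.97, adjusted p = 0.166) or the second spleen library (−2.25, adjusted p = 0.0619). For that last difference DESeq2 gave −2.20 and no adjusted p, since it set the gene aside for its low count. *Actg1* in liver over spleen differed by −0.74 from cluster 1, and the call was lost with DESeq2 (−0.77, adjusted p = 0.0589), without the first liver library (−0.70, adjusted p = 0.175) or the second spleen library (−0.62, adjusted p = 0.333).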

How the results depend on the processing

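With 2 libraries per organ, single libraries set several calls. Leaving out each in turn, the members called over all cells ranged from 2 to 4 for liver over spleen, 4 to 6 for liver over lymph node and 1 to 2 for spleen over lymph node. In cluster 0 the ranges were 2 to 5, 0 to 5 and 0 to 0, in cluster 1 1 to 3, 2 to 3 and 0 to 0, and in cluster 3 0 to 3, 3 to 6 and 1 to 2. Members whose difference differed between cluster 3 and cluster 0 ranged from 0 to 1, 1 to 2 and 1 to 1, and against cluster 1 from 0 to 2, 1 to 1 and 0 to 1. *Vim* in cluster 3, liver over lymph node, ranged from −0.017 without the first liver library to 1.68 without the second.

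DESeq2 called 5 members over all cells for liver over spleen against 3 in edgeR, 3 against 5 in cluster 0 and 5 against 3 in cluster 1. It called 1 against 2 in cluster 3 for spleen over lymph node, as did upper quartile scaling, no low-count filter, ribosomal genes kept and thinned libraries. Against cluster 1, the interaction counts for liver over spleen and spleen over lymph node were 0 with DESeq2. Over all genes DESeq2 called 1439, 2577 and 1137 against 2658, 3848 and 1869. For liver over lymph node in cluster 0, 3 members were called with no low-count filter and 2 at Leiden resolution 1.0. For liver over spleen in cluster 0, 1 was called at resolution 1.0 and 1 with cytoskeleton genes allowed in clustering, where the *Actb* value became 0.13 and 0.046. With ribosomal genes kept, cluster 1 had 5 for liver over spleen. With no regression before clustering, 1 member was called for both liver comparisons in cluster 1 and for all 3 in cluster 3, and cluster 0 could not be fitted. The cause was not tested.

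No label says that sample numbers pair the libraries, and deviations of same-numbered libraries correlated only weakly, at 0.0985, 0.0832 and 0.0752. These values cannot decide whether same-numbered libraries share a batch or, for liver and spleen, an animal. With the replicate block 5 members were called for liver over spleen, over all cells and in cluster 1. Over all cells the block added *Actb* (−0.37, adjusted p = 0.0146) and *Tmsb4x* (0.35, adjusted p = 0.0218, edgeR) there, and *Tmsb10* (0.35, adjusted p = 0.0311) for spleen over lymph node.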
